A study of Homo sapiens with 27 samples.

Results

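TeloHAEC cells are aortic endothelial cells of human origin that were immortalised, and their unedited baseline was taken from the 11 negative control libraries of a series of 27. They were chosen by their labels alone, 7 from experiment series B and 4 from series A. The study deleted candidate enhancers with Cas9 and counted messenger RNA by its 3′ ends. Series B held the LDAH enhancer deletion and series A the SMAD3 enhancer deletion, with 4 libraries each, and each series also had 4 libraries from cells that received a guide against HPRT. Of the other 16 libraries, the HPRT-targeted ones give a second, separate comparison of the series.

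Unedited here means electroporated with Cas9 and a non-targeting guide, not untouched. In both series, ribonucleoprotein of high-fidelity Cas9, tracrRNA and the negative control crRNA of a commercial kit was delivered to 150000 cells per replicate by a pulse of 1350 V for 30 ms, and RNA was taken 2 days later. Line, medium, guide and library kit (QuantSeq 3′ FWD, 86 cycles single-end) were shared by series B and series A, and the labels name nothing that set the series apart, so date, passage and batch of handling cannot be told apart from the series. Replicates are separate electroporations, and separate cultures are not named, so p-values measure the spread between these libraries, which may be technical. A single purchased line stands in for aortic endothelium, and in bulk RNA fewer cells of a kind and less RNA per cell cannot be told apart.

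Endothelial cells line vessels and are held together by the junction proteins PECAM1 and VE-cadherin (CDH5). They keep blood fluid through plasminogen activators, thrombomodulin and nitric oxide made by NOS3, and they store von Willebrand factor (VWF) for release on injury. Cells in culture divide, so a baseline of such a line also holds messengers for translation, the cytoskeleton and DNA replication.

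Libraries held 4579815 to 6414050 counts in series B and 5192724 to 6940870 in series A. At these depths a count of 0 allows up to 0.468 to 0.655 CPM (counts scaled to a common library total) in series B and 0.432 to 0.578 CPM in series A, taking 3 counts, and this covers counting error only. Replicates 6 and 7 of series B stood apart from the other 9 libraries. Their median correlation with libraries of their own series, over log2(CPM + 0.5) of the genes tested between the series, was 0.877 and 0.856. It was 0.947 to 0.959 for replicates 1 to 5 of series B and 0.983 to 0.984 for the series A libraries. The common dispersion, which gives the variation between replicates as a squared coefficient of variation, was 0.114 in series B and 0.0114 in series A, or 33.8% and 10.7% as coefficients of variation. It was 0.0375 (19.4%) in series B when those libraries were left out. Many results are therefore also given without them. Counts given only with all 11 libraries can change when those libraries are left out. Of 37 splicing factors, 18.9% differed between the series with all 11 libraries and 51.4% without replicates 6 and 7. Over all genes tested these shares were 9.06% and 31.2%.

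**Figure D1:**
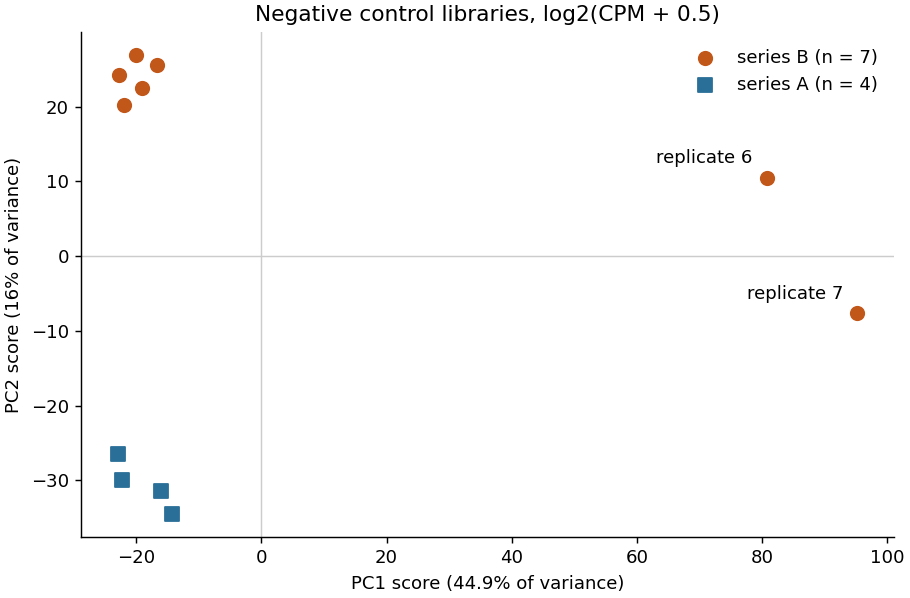
Scores of the 11 negative control libraries on the first and second principal components (PC1 and PC2, no unit) of log2(CPM + 0.5), with series B as circles and series A as squares. PC1 (44.9% of the variance) sets replicates 6 and 7 of series B apart from the other 9 libraries, and PC2 (16% of the variance) separates replicates 1 to 5 of series B from series A.

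Baseline counts were concentrated in few genes. The 142 genes with a mean of at least 1000 CPM held 28.55% of the counts, and the 1876 genes between 100 and 1000 CPM held 45.1%. Another 6468 genes lay between 10 and 100 CPM with 24.79% of the counts, 3342 between 1 and 10 CPM and 2180 under 1 CPM. A QuantSeq read starts near the 3′ end of a transcript, so CPM were not divided by gene length. The most abundant messengers encoded a metallothionein, cytoskeletal proteins and parts of the ribosome. MT2A, a metal-binding metallothionein, averaged 5922 ± 1104 CPM in series B and 11688 ± 573 CPM in series A (SD, n = 7 and 4). VIM, the intermediate filament protein vimentin, averaged 7006 ± 1577 CPM in series B and 7474 ± 626 CPM in series A, and gamma-actin (ACTG1) averaged 5662 ± 651 and 10297 ± 961 CPM in the same order. Of the 20 genes with the highest levels, 8 encode ribosomal proteins, among them RPL41, RPS29, RPS27A, RPS23, RPL37A, RPL13A and RPS24. The others besides MT2A, VIM and ACTG1 were the elongation factor EEF1A1, the tubulin TUBA1B, the chaperones HSP90AB1 and HSP90AA1, the calcium-binding S100A6, the poly(A)-binding PABPC1, prothymosin (PTMA), the iron store FTH1 and beta-actin (ACTB). Ribosomal protein and EEF1A1 messengers have many near-identical processed pseudogenes, and the authors' treatment of reads that match several places is not given in the sources used here.

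The endothelial label held for junction and receptor genes and was weak for VWF. PECAM1 had 494.8, 424.0, 563.2, 372.6, 379.8, 181.8 and 278.0 CPM in replicates 1 to 7 of series B, against 315.2, 391.9, 380.2 and 363.9 CPM in series A. The series overlapped, and replicates 6 and 7 were the lowest of all 11 libraries. CDH5 ran between 125.0 and 327.5 CPM in series B with a median of 284.9 CPM, against 204.8, 194.7, 213.4 and 252.2 CPM in series A. With all 11 libraries neither gene differed past the threshold, with a log2 fold change of 0.09 ± 0.24 for PECAM1 (SE, edgeR adjusted p = 0.888) and 0.23 ± 0.23 for CDH5 (edgeR adjusted p = 0.62). Both were higher in series B when replicates 6 and 7 were left out, PECAM1 by 0.30 (edgeR adjusted p = 0.0479) and CDH5 by 0.45 (edgeR adjusted p = 0.00177). VWF reached only 2.78 ± 2.23 CPM in series B and 2.97 ± 0.301 CPM in series A, with 0 to 38 counts per library and 0 in replicates 6 and 7 of series B.

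All 8 endothelial markers set for the check were measured, and 7 of them reached a mean of 10 CPM. TIE1 averaged 148 CPM in series B and 179 CPM in series A, the transcription factor ERG 156 and 215 CPM, the VEGF receptor KDR 62.1 and 49.5 CPM, the angiopoietin receptor TEK 53.6 and 74.2 CPM, and the tight-junction protein CLDN5 23.2 and 15.4 CPM, each in that order. The summed endothelial markers ran from 615.5 to 1400.0 CPM over series B and from 1074.0 to 1135.0 CPM over series A. Of 6 smooth muscle markers 3 were measured, with sums of 28.33 to 106.4 CPM in series B and 72.03 to 78.69 CPM in series A. MYH11, CNN1 and DES were not among the genes counted. Of 6 fibroblast markers only PDGFRA was measured, at 0.327 CPM in series B and 0.308 CPM in series A, which is under the limit of a count of 0. Of 4 leukocyte markers 2 were measured, CD14 at 0.557 and 0.695 CPM and CD68 at 8.28 and 6.45 CPM in series B and series A. The 4 epithelial markers were not among the genes counted. Markers that were not counted could not be checked. Of 4 lymphatic endothelial markers, LYVE1, which overlaps IRAG1 on the same strand, averaged 31.9 CPM in series B and 23.5 CPM in series A, PDPN 4.23 and 9.33 CPM, and PROX1, the transcription factor that defines lymphatic cells, stayed at 0.484 and 0.4 CPM. Genes of the arterial and of the venous list were both found, at uneven levels. The arterial gene EFNB2 had only 4.132 to 15.91 CPM in series B and 4.48 to 11.4 CPM in series A. EPHB4 of the venous list had 80.68 to 172.1 CPM in series B and 157.0 to 199.1 CPM in series A. Of 16 arterial genes listed, 11 were tested between the series. The venous factor NR2F2 averaged 620 ± 219 CPM in series B and 743 ± 128 CPM in series A, and among arterial genes the semaphorin coreceptor NRP1 averaged 199 ± 35.8 and 149 ± 3.93 CPM, HEY2 87.4 ± 21.7 and 76.9 ± 4.14 CPM, and SOX17 70.0 ± 17.9 and 80.6 ± 16 CPM, series B before series A in each.

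The functional groups of endothelium had clear leaders at baseline. In the plasminogen system, PLAT, the tissue plasminogen activator, averaged 1547 ± 169 CPM in series B and 1229 ± 85.9 CPM in series A. The caveolar coat genes CAVIN1 and CAV1 averaged 1860 ± 642 and 1555 ± 557 CPM in series B, and 1657 ± 118 and 1229 ± 67.5 CPM in series A. Among vasoactive peptides, apelin (APLN) averaged 1087 ± 326 CPM in series B and 1399 ± 140 CPM in series A, and endothelin-1 (EDN1) 176 ± 39.7 and 198 ± 38 CPM. In the list of inducible adhesion molecules, chemokines and NF-kB pathway genes the highest levels were those of the NF-kB inhibitor NFKBIA (95.5 CPM in series B, 73.1 CPM in series A), NFKB1 (60.5 and 44.8 CPM), IL32 (53.6 and 42 CPM) and the chemokine CCL2 (34.7 and 27.1 CPM). The genes at the enhancers that other groups of the study deleted were expressed at unequal levels, SMAD3 at 117 ± 25.7 CPM in series B and 136 ± 9.88 CPM in series A, and LDAH at 12.2 ± 3.47 and 14.0 ± 3.19 CPM. Neither passed the test between series (edgeR adjusted p = 0.53 for SMAD3 and 0.71 for LDAH).

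Between the series, 1039 of 11466 genes tested differed at an edgeR adjusted p under 0.05 (9.06%). Of these 542 were higher in series B (4.73%) and 497 lower (4.33%). The median absolute log2 fold change of the called genes was 0.795, and 275 of them changed by at least 1 on the log2 scale, 153 higher and 122 lower in series B. For 916 of the 1039 the series did not overlap in CPM (88.2%), against 12.4% of all genes tested. A test against a fold of 1.5 called 59 genes (0.515%), 22 higher and 37 lower in series B. Without replicates 6 and 7 of series B, 3536 of 11324 genes were called (31.2%), 1784 higher and 1752 lower, and 1038 of the 1039 were among them in the same direction. The count depends on single libraries too, with 480 calls when replicate 4 of series A was left out, 487, 509 and 575 without its replicates 1, 2 and 3, and 1595 without replicate 7 of series B.

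**Figure D2:**
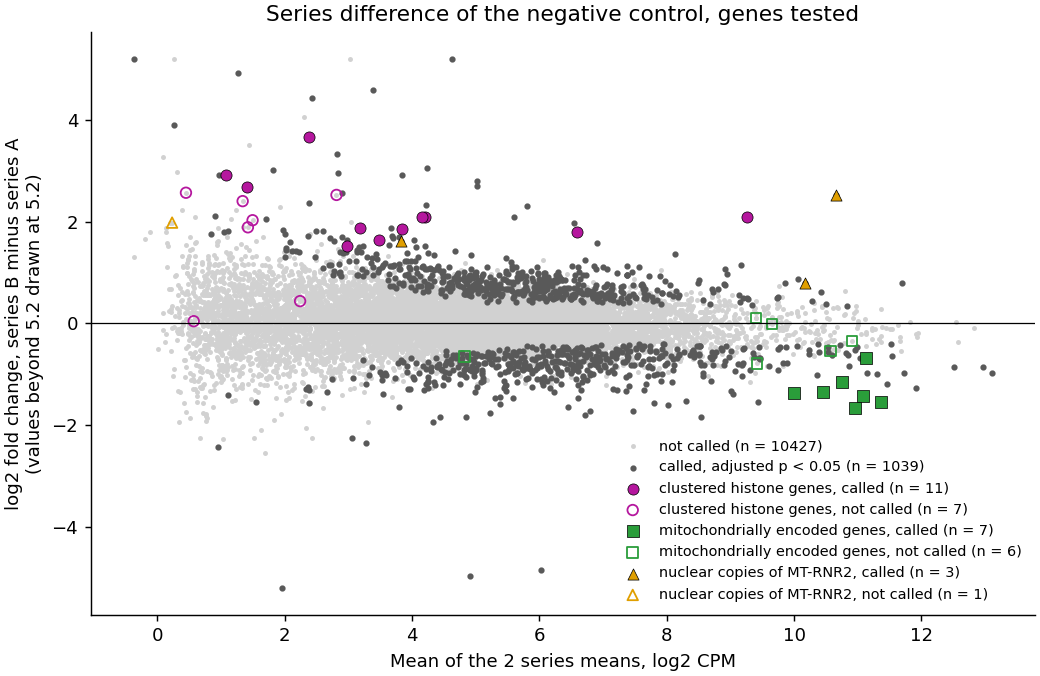
Log2 fold change of series B minus series A (vertical axis) against the mean level of the 2 series in log2 CPM (horizontal axis) for the 11466 genes tested in the 11 negative control libraries. Of 18 clustered histone genes tested 11 were called, all higher in series B, and of 13 mitochondrially encoded genes 7, all lower. Of 4 nuclear copies of MT-RNR2 tested 3 were called, all higher. Over all genes tested 9.06% were called. Histone genes and MT-RNR2 copies that passed the filter on low counts only through series B had to differ, so nothing is read from their counts.

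The clustered histone genes, which supply the histones for newly replicated DNA, were higher in series B as a sum. Over all 40 counted, the sum was 811.1 to 2484.0 CPM in series B with a median of 1153.0, against 183.0 to 416.2 CPM in series A with a median of 370.9. The ranges do not meet. Of the 40, 18 passed the filter on low counts, and 11 of these were called higher and none lower, beside 4.73% and 4.33% of all genes. Members that passed only through their level in series B had to differ, so nothing is read from that count. Most of the sum was H4C3 (GRCh38 chromosome 6, 26103876 to 26104310, plus strand), a gene for histone H4. H4C3 had 693.2, 946.7, 809.9, 887.4, 620.8, 1972.0 and 1029.0 CPM in replicates 1 to 7 of series B, against 247.6, 265.0, 294.4 and 125.2 CPM in series A, a log2 fold change of 2.09 ± 0.33 (SE, edgeR adjusted p = 0.00211). Replicate 6 was the highest library of series B and replicate 4 the lowest of series A. H1-2, a linker histone, had 81.48 to 208.7 CPM in series B with a median of 140.4, against 58.86, 46.28, 47.81 and 18.89 CPM in series A (log2 fold change 1.80 ± 0.31, edgeR adjusted p = 0.00353). The linker histones H1-4 and H1-5 were higher by 2.09 each, H1-3 by 1.87 and H2AC20 by 1.86, all called. H2AC13 and H4C11 were called with all 11 libraries, by 1.65 and 1.52, and lost the call in 6 and 8 of 11 fits that left out 1 library. Copies of these genes are near-identical, so how reads were divided among them is uncertain.

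Messengers of replicating histones are known to end in a short hairpin in place of a poly(A) tail, and the library kit primes on poly(A). The letters CTTTTCAG, the loop of the hairpin with the stem bases next to it, were searched to show which measured genes carry them near the annotated end. The search used the sense strand in the last 100 bases of every GENCODE 29 transcript. They were present for 9 of the 40 clustered histone genes and for 298 of 13892 genes in all (2.15%). No match says only that the letters are not in the window of the annotated transcript. In the annotated transcripts of H2AC13, H4C11, H2AC8 and H4C8, 43, 10, 55 and 22 bases follow the letters. A match therefore does not show that a transcript ends at the hairpin. The 4 stretches printed are from genes of chromosome 6 (GRCh38) measured in both series. They are given 5′ to 3′ as DNA letters on the gene's strand, with CTTTTCAG in capitals.
H2AC13 (27808199 to 27808701, plus strand): caaaggctCTTTTCAGagccacct
H4C11 (27824108 to 27824480, plus strand): aaaaggccCTTTTCAGggccaccc
H2AC8 (26216975 to 26217483, plus strand): caaaggctCTTTTCAGagccaccc
H4C8 (26277609 to 26285638, minus strand): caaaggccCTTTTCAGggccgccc
Mean levels of these 4 were 17.0, 11.7, 4.62 and 4.55 CPM in series B, against 5.34, 4.05, 0.695 and 1.09 CPM in series A. H2AC8 had 6, 5, 4 and 1 counts in the series A libraries and H4C8 4, 8, 12 and 1, so both entered the test mainly through series B, and their fold changes are not given. Whether the counted reads came from polyadenylated forms was not tested.

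Histone genes outside the clusters were called in both directions, 33.3% of 9 against 9.06% of all genes. Of 9 tested, H1-10 was higher in series B by 1.13 and H2AX, the histone phosphorylated at DNA breaks, by 0.88, and H2AZ1, which replaces H2A at promoters, was lower. H2AZ1 had 734.2 to 1141.0 CPM in series B with a median of 773.6, against 1791, 1765, 1748 and 1755 CPM in series A (log2 fold change -1.02 ± 0.14, edgeR adjusted p = 0.00116). The 4 series A libraries agreed within a narrow band, and no series B library reached it. Genes of proliferation in general were close to the background, 12.5% called against 9.06% over all genes, with 1 higher (CCNE2, the cyclin E2 of S-phase entry, by 1.14) and 4 lower of 40 tested, among them AURKB, a mitotic kinase (-0.69). The median of the 40 was -0.09, against 0.023 over all genes tested. Without replicates 6 and 7 of series B, 6 were higher and 8 lower (35% called, against 31.2% of all genes), with a median of -0.007.

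Messengers made in mitochondria were lower in series B. They took 1.3% ± 0.274 of all counts in series B and 2.37% ± 0.215 in series A (SD, n = 7 and 4), and the ranges, 0.998% to 1.77% and 2.08% to 2.55%, did not overlap (two-sided exact permutation test over 330 arrangements, p = 0.00303, the smallest it can give, and 0.0152 after adjustment over 5 library measures). Of 13 such genes tested 7 were lower and none higher (53.8% called, against 9.06% of all genes), with a median of -0.78 against 0.023 over all genes. MT-ND4, a subunit of complex I, had 1398.0, 798.4, 832.0, 1235.0, 1263.0, 594.7 and 606.7 CPM in replicates 1 to 7 of series B, against 2520, 3174, 2781 and 3613 CPM in series A (log2 fold change -1.65 ± 0.23, edgeR adjusted p = 0.00109). MT-ND1, another subunit of complex I, had 440.5 to 780.2 CPM in series B, against 1321, 1628, 1344 and 1606 CPM in series A (-1.37 ± 0.15, edgeR adjusted p = 0.000251). MT-CYB of complex III fell by 1.35, MT-CO2 and MT-CO3 of complex IV by 1.43 and 0.69, MT-ATP6 of ATP synthase by 1.55 and MT-ND3 by 1.15 on the log2 scale. Others did not pass. MT-ND5 had 390.7 to 1011.0 CPM in series B with a median of 698.3, against 559.9, 733.8, 775.7 and 536.4 CPM in series A, and MT-CO1 averaged 801 ± 195 CPM in series B and 807 ± 54.3 CPM in series A. On the same strand, MT-ND4 overlaps MT-ND4L and MT-ATP6 overlaps MT-ATP8 and MT-CO3, so counts of these genes are uncertain.

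Nuclear copies of the mitochondrial 16S ribosomal RNA gene MT-RNR2 moved the other way. Of 6 MTRNR2L genes counted 4 passed the filter, and 3 of these were called higher in series B and none lower, beside 4.73% and 4.33% of all genes. A member that passed only through its level in series B had to differ, so nothing is read from that count. MTRNR2L8 (GRCh38 chromosome 11, 10507887 to 10509189, minus strand) had 3094, 3759, 2809, 2407, 2350, 2722 and 2145 CPM in replicates 1 to 7 of series B, against 590.6, 562.7, 468.3 and 292.0 CPM in series A, which is 5.76-fold higher (log2 fold change 2.53 ± 0.22, edgeR adjusted p = 4.25e-05). MTRNR2L12 had 1219 to 1847 CPM in series B, against 1090.0, 831.8, 853.0 and 591.9 CPM in series A (0.79 ± 0.16, edgeR adjusted p = 0.0084), and MTRNR2L1 was higher by 1.63. The copies resemble MT-RNR2 closely, with 93.1% identical bases over 1303 aligned for MTRNR2L8, 95.1% over 1050 for MTRNR2L12 and 88.6% over 1555 for MTRNR2L1. Reads of the mitochondrial gene and of these copies may therefore have been exchanged, and MT-RNR2 itself is not analysed here.

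Nuclear genes of the respiratory chain had a median of -0.21 and none of 55 tested was higher in series B, while 6 were lower (10.9%, close to the 9.06% over all genes). COX6C of complex IV fell by 1.14, ATP5MG of ATP synthase by 1.02, NDUFA1 of complex I by 1.00 and UQCRB of complex III by 0.92. When replicates 6 and 7 of series B were left out, 37 of the 55 were lower and 2 higher (70.9% called, against 31.2% of all genes), with a median of -0.43. COX17, a copper chaperone for complex IV outside that list, had 43.63 to 65.44 CPM in series B with a median of 49.2, against 171.6, 169.6, 167.5 and 173.4 CPM in series A (log2 fold change -1.71 ± 0.14, edgeR adjusted p = 3.5e-05). The spread of COX17 within series A was far smaller than its distance to any series B library.

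**Figure D3:**
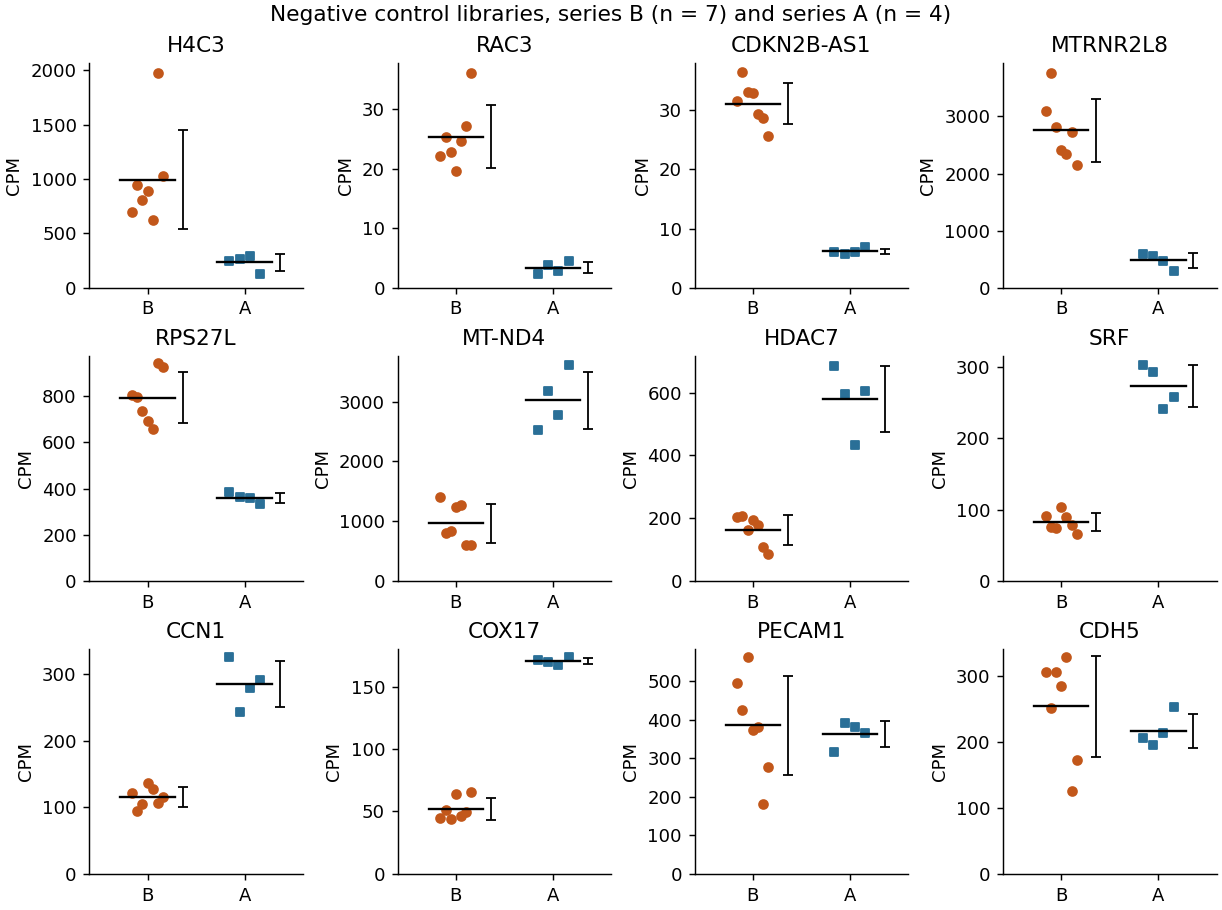
CPM of 12 genes in each negative control library, with series B (7 circles) left of series A (4 squares) in each panel; horizontal bars are means and the error bars beside them are SD. In the panels other than PECAM1 and CDH5 the series do not overlap, for example RAC3 at 19.57 to 36.01 CPM in series B against 2.311 to 4.48 CPM in series A.

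Among single genes, RAC3 showed 1 of the largest rises, from a low level of 15, 19, 18 and 23 counts in the series A libraries. RAC3, a small GTPase, had 22.08, 25.24, 22.86, 19.57, 24.59, 27.16 and 36.01 CPM in replicates 1 to 7 of series B, against 2.311, 3.874, 2.888 and 4.48 CPM in series A, which is 7.5-fold higher (log2 fold change 2.91 ± 0.25, edgeR adjusted p = 4.25e-05). AP1S1, a subunit of the clathrin adaptor at the trans-Golgi, had 34.69 to 91.13 CPM in series B with a median of 56.41, against 9.399, 7.34, 9.626 and 8.181 CPM in series A (2.70 ± 0.28, edgeR adjusted p = 0.000176). CDKN2B-AS1, the long noncoding RNA of the 9p21 coronary artery disease locus (GRCh38 chromosome 9, 21994778 to 22121097), had 25.69 to 36.42 CPM in series B with a median of 31.49, against 6.009, 5.709, 6.096 and 6.817 CPM in series A (2.33 ± 0.17, edgeR adjusted p = 2.36e-05). For each of the 3, every series B library lay above every series A library. CDKN2B-AS1 runs antisense to CDKN2B, and whether the counting used strand is not given in the sources used here. C5orf63 rose by 3.05 and FKBP10, a collagen prolyl isomerase of the endoplasmic reticulum, by 2.31. RPS27L, a p53 target akin to a ribosomal protein, had 658.4 to 943.2 CPM in series B, against 384.3, 361.3, 357.6 and 331.9 CPM in series A (1.15 ± 0.13, edgeR adjusted p = 0.000298). It was the only p53 target of 34 tested that was called higher, and TNFRSF10B, a death receptor, the only 1 called lower (-0.65). That is 5.88% called, against 9.06% of all genes, and 21 of the 34 had a positive fold change. Without replicates 6 and 7 of series B, 7 were called higher and 5 lower (35.3%, against 31.2% of all genes). The arrest gene CDKN1A averaged 342 ± 106 CPM in series B and 336 ± 70.6 CPM in series A.

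Among genes that were lower in series B, 2 regulators of transcription were well measured in every library. HDAC7, a class IIa histone deacetylase that keeps endothelial junctions intact, had 84.11 to 206.0 CPM in series B with a median of 178.7, against 685.5, 595.7, 433.5 and 606.7 CPM in series A (log2 fold change -1.84 ± 0.23, edgeR adjusted p = 0.00054). SRF, which drives actin and immediate early genes, had 66.1 to 103.8 CPM in series B with a median of 78.32, against 303.4, 293.8, 240.8 and 257.7 CPM in series A (-1.73 ± 0.14, edgeR adjusted p = 3.5e-05). No series B library came near the lowest series A library for either gene. MED24, a Mediator subunit, fell by 1.80, the ephrin receptor EPHB3 by 1.76, TTI1, which helps assemble mTOR complexes, by 1.84, the cell surface protein CEMIP2 by 1.63, and ABHD17C, a depalmitoylase, by 1.58. RASSF1 fell by 1.94 and STK36 by 1.64, but RASSF1 lost its call in 7 of the 11 fits that left out 1 library.

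Targets of SRF and YAP and cytoskeletal genes moved unevenly. Of 25 tested, 1 was higher and 6 were lower in series B (28% against 9.06% over all genes), with a median of -0.09. CCN1, a matrix protein and YAP target, had 94.7 to 137.0 CPM in series B with a median of 115.1, against 325.9, 243.0, 279.5 and 291.4 CPM in series A (-1.30 ± 0.13, edgeR adjusted p = 0.000141). ACTG1 fell by 0.86, TUBA1B by 0.85 and TUBB by 0.99, whereas ACTB averaged 2866 ± 142 CPM in series B and 3085 ± 242 CPM in series A and the YAP target CCN2 774 ± 154 and 909 ± 171 CPM. Of 18 immediate early genes tested none rose and 3 fell (16.7%, against 9.06% of all genes), CCN1, IER5 (-0.99) and IER2 (-0.52). Tubulin and actin genes have near-identical relatives, so their counts carry the uncertainty of reads shared among copies.

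The messengers of translation fell in part. Of 84 cytosolic ribosomal protein genes 19 were lower and 1 higher (23.8% called, against 9.06% of all genes), with a median of -0.17. In the fit without replicates 6 and 7 of series B, 57 were lower and 4 higher (72.6% called, against 31.2% of all genes), with a median of -0.36. Their share of counts was 10.5% to 11.5% in replicates 1 to 5 of series B and 15.5% and 16% in replicates 6 and 7, against 13% to 14.2% in series A. With all 11 libraries the share did not pass the two-sided exact permutation test (p = 0.318, adjusted p = 0.398). Without replicates 6 and 7 it averaged 10.9% in series B against 13.5% in series A. The exact permutation test then gave the smallest p it can (0.00794 over 126 arrangements, adjusted p = 0.0132). Replicates 6 and 7 held the highest shares and were singled out after their values were seen, so nothing is read from that test. RPS27A, a ribosomal protein fused to ubiquitin, had 1903 to 3077 CPM in series B with a median of 1950, against 5641, 5424, 5060 and 5796 CPM in series A (log2 fold change -1.27 ± 0.15, edgeR adjusted p = 0.000321). RPS23 fell by 0.96, RPL13A by 0.64 and RPS24 by 0.40. PABPC1, which binds poly(A) tails, rose by 0.80 but lost its call in 7 of the 11 fits that left out 1 library, and MT2A fell by 0.98 (edgeR adjusted p = 0.00116). Of 18 host genes of small nucleolar RNAs 5 fell and none rose (27.8%, against 9.06% of all genes), SNHG8 by 0.98 and SNHG19 by 0.88. Of 37 splicing factors 6 fell and 1 rose (18.9%). U2AF1, which recognises the 3′ splice site, had 123.7 to 229.3 CPM in series B, against 480.4, 573.7, 399.5 and 411.4 CPM in series A (-1.52 ± 0.17, edgeR adjusted p = 0.000298), and SRSF1 fell by 0.87. U2AF1 has a duplicated copy in some human assemblies, so its count is uncertain.

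How often endothelial identity genes were called depends on replicates 6 and 7 of series B. Of 30 tested with all 11 libraries none was higher and 3 were lower in series B, which is 10% against 9.06% over all genes, with a median of -0.16. Without replicates 6 and 7 of series B, 8 were higher and 6 lower, which is 46.7% against 31.2% over all genes, with a median of -0.06. ESAM, a junction adhesion molecule, fell by 0.57 (edgeR adjusted p = 0.0084). CLEC14A, a surface glycoprotein of sprouting vessels, had 192.4, 92.84, 119.5, 122.5, 123.3, 132.0 and 253.0 CPM in replicates 1 to 7 of series B, against 381.6, 274.4, 250.9 and 283.6 CPM in series A (-1.01 ± 0.24, edgeR adjusted p = 0.0184). Only replicate 7 of series B reached the series A range. NOS3, the endothelial nitric oxide synthase, had 25.91 to 74.96 CPM in series B with a median of 56.25, against 83.51, 96.23, 111.0 and 98.36 CPM in series A (-0.85 ± 0.25, edgeR adjusted p = 0.0483), and lost its call in 8 of the 11 fits that left out 1 library. MCAM had 510.1 to 1366.0 CPM in series B with a median of 1201.0, against 666.5, 462.0, 558.5 and 925.6 CPM in series A and was not called (edgeR adjusted p = 0.111).

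In haemostasis, 1 of 15 genes rose and 1 fell in series B (13.3% called, against 9.06% of all genes), the thrombin receptor F2R by 0.46 and the urokinase receptor PLAUR with a log2 fold change of -0.75. In the vasoactive and caveolar group of 13, 30.8% were called, and CAV2 rose by 0.77 and CAVIN3 (-0.44), NOS3 and adrenomedullin (ADM, -0.78) fell. Of 31 TGF-beta and BMP components tested 4 rose and 1 fell (16.1%, against 9.06% of all genes). The ligand TGFB1 rose by 1.14, the signal transducers SMAD5 and SMAD1 by 0.79 and 0.72 (SMAD1 was named after its value was seen) and the ubiquitin ligase SMURF2, which turns over receptors, by 0.68, and the ligand BMP6 fell by 0.49. Most of these calls were near the threshold, and F2R, CAV2, CAVIN3, ADM, TGFB1, SMAD5, SMURF2 and BMP6 each lost the call in 3 to 8 of the 11 fits that left out 1 library, PLAUR in 1. None was called among 11 arterial, 6 venous and lymphatic, 14 adhesion, chemokine and NF-kB pathway, 17 mesenchymal, 30 matrix and 23 angiogenic genes tested, or among 3 markers of other cell types by edgeR at an adjusted p under 0.05. At an unadjusted p under 0.05 there were 2, 1, 1, 0, 3, 6 and 0 genes in these 7 groups, in the order named, and DESeq2 called 0, 1, 0, 0, 2, 3 and 0. With replicates 6 and 7 of series B left out the calls were 4 higher and none lower among the arterial genes (36.4% called), 9 higher and 3 lower among the matrix genes (40%), 6 and 6 among the angiogenic genes (52.2%), 2 and 2 among the mesenchymal genes (23.5%), and 9 higher and 2 lower among the TGF-beta and BMP components (36.7%), against 31.2% of all genes.

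Metabolic lists had called shares of 11.1% to 15.6%, not far from the 9.06% of all genes. HMGCS1, an early enzyme of the mevalonate pathway, fell by 0.84 on the log2 scale, the desaturase SCD by 0.68 and ACLY, which supplies acetyl-CoA, by 0.45. In all 5 of 32 sterol and fatty acid genes tested fell and none rose (15.6%), with a median of -0.06, and without replicates 6 and 7 of series B 13 fell and 2 rose (46.9%, against 31.2% of all genes). Of those not called, INSIG1, the sterol sensor, averaged 372 ± 70.7 CPM in series B and 303 ± 19.4 CPM in series A. Of 29 hypoxia and glycolysis genes 4 fell and none rose (13.8%), PFKFB3, the activator of glycolysis, by 0.81 and GAPDH by 0.47 among them. Of 18 NRF2 response genes, TKT and PGD of the pentose phosphate pathway rose by 0.85 and 0.43 and none fell (11.1%). Stress genes gave few calls. These were the mitochondrial cochaperonin HSPE1 (-0.75) of 17 heat shock genes (5.88%) and the amino acid carrier SLC3A2 (-0.44) of 28 genes of the integrated stress and unfolded protein responses (3.57%). Of 26 interferon-stimulated genes IFI6 (-1.31) and IFITM2 (-0.65, overlapping IFITM1) fell and IRF9 rose by 1.02 (11.5%). Among transcription factors of the KLF, ETS and SOX families, ELF1 rose by 0.79 and KLF9 by 1.00, out of 30 tested (6.67%). Each of these shares stands beside 9.06% of all genes. SLC3A2, IRF9, PGD and KLF9 lost their calls in 6 to 8 of the 11 fits that left out 1 library.

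Some of the most extreme differences were in genes that overlap another gene on the same strand. OVCA2, which lies within DPH1 on the same strand, had 0 CPM in 6 of 7 series B libraries and 13.97 CPM in replicate 6, against 72.57, 55.66, 47.97 and 56.68 CPM in series A. DPH1, an enzyme of diphthamide synthesis, had 57.14 to 109.0 CPM in series B, against 3.544, 24.67, 20.86 and 24.35 CPM in series A. PTP4A1, a phosphatase that shares its locus with another ID, had 0 CPM in 6 of 7 series B libraries and 29.92 CPM in replicate 4, against 128.7, 141.7, 124.0 and 109.5 CPM in series A. A second ID of MATR3, a nuclear matrix protein (GRCh38 chromosome 5, 139273752 to 139331671), had 0.0 to 104.5 CPM in series B with a median of 38.96 and 0 in all 4 series A libraries. Against 3 counts in a library this is at least 85.9-fold higher in the negative control, and replicate 6 of series B also had 0. Other libraries of series A were not all at 0. HPRT-targeted replicates 1 to 4 of series A had 85, 0, 0 and 0 counts, and SMAD3 deletion replicates 1 to 4 had 433, 64, 0 and 103. This second ID lies at the locus of SNHG4 and of the first MATR3 ID. Counts of such overlapping genes are uncertain, and DESeq2 called neither OVCA2 nor PTP4A1. Over the 774 tested genes with a same-strand overlap, 9.56% were called, against 9.03% of the others.

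Replicates 6 and 7 of series B differed from replicates 1 to 5 by transcript length and in matrix genes. With genes divided into 5 bins of about equal size by their longest annotated transcript, the median of replicates 6 and 7 minus replicates 1 to 5 was 0.36 on the log2 scale for the shortest bin (173 to 1911 bases) and -0.49 for the longest (5774 bases or more). The 30 basement membrane and matrix genes had a median of -1.96 and the 30 endothelial identity genes of -0.62, against -0.007 over all genes tested, and ribosomal protein genes of 0.56. Fibronectin (FN1) had 34.44 and 32.06 CPM in replicates 6 and 7, against 553.3 to 654.3 CPM in replicates 1 to 5 of series B and 750.0, 973.5, 968.4 and 855.7 CPM in series A. The matrix protease MMP2 had 1.771 and 0.0 CPM in replicates 6 and 7, against 32.36 to 52.69 CPM in replicates 1 to 5 and 36.36 to 44.44 CPM in series A. Both libraries also held more genes at 0 than the rest. Of 7320 genes with at least 10 CPM in every library they were set against, 9 were at 0 in replicate 6 and 11 in replicate 7, and 100 and 161 were under 10% of the median, against 0 to 2 in each other library. These libraries were singled out after their values were seen, so the differences are a description.

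**Figure D4:**
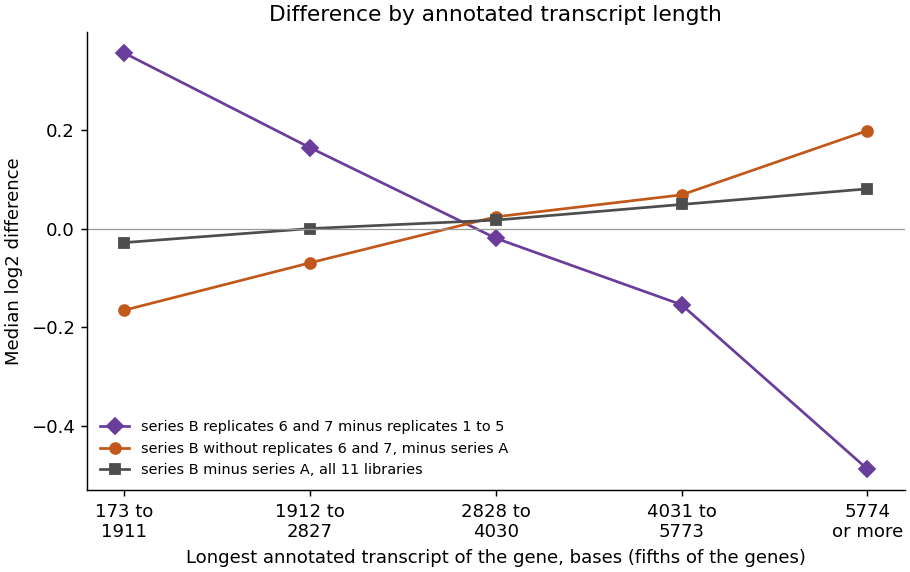
Median log2 difference of genes (vertical axis) by 5 bins of the longest annotated transcript in bases (horizontal axis, 2284 to 2291 genes a bin). The shortest and longest bins are at 0.36 and -0.49 for replicates 6 and 7 minus replicates 1 to 5 of series B, at -0.17 and 0.20 for series B without them minus series A, and at -0.03 and 0.08 with all 11 libraries.

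Transcript length also moved with the series. With replicates 6 and 7 left out, the median of series B minus series A was -0.17 in the shortest bin and 0.20 in the longest, and with all 11 libraries it was -0.03 and 0.08. Genes were also put in 5 bins by GC content of the last 500 bases. The median of series B minus series A was 0.18 in the bin lowest in GC, -0.09 in bin 4 and 0.03 in the highest. In the lowest bin 7.87% were called higher and 2.07% lower, and in the highest 6.18% and 4.78%. Over all genes tested these shares were 4.73% and 4.33%. By chromosome, medians ran from -0.054 to 0.099 over 23 nuclear chromosomes, against -0.78 for the mitochondrial genome. The part of length, GC content and library quality in the differences of single genes was not tested.

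The HPRT-targeted libraries, which share no sample with the negative controls, gave the same comparison a second time. There 375 of 11053 genes tested were called between series B and series A (3.39%), 172 higher and 203 lower in series B. Of 1030 genes called in the negative control and tested in both, 1026 had the same direction in the HPRT-targeted libraries (99.6%), against 79.8% of all genes tested in both. Called in both kinds of control were 309 genes, 140 higher and 169 lower in series B, which is 30.0% of the negative control calls and 82.4% of the HPRT-targeted calls, and every one had the same direction. Across 11003 genes, which are not independent, the log2 fold changes of the 2 kinds of control correlated with r = 0.759. H4C3 had 584.9, 1597, 562.5 and 2071 CPM in HPRT-targeted cells of series B, against 223.7, 187.9, 375.5 and 213.6 CPM in those of series A. RAC3 had 15.15 to 28.89 CPM in series B, against 1.248 to 4.853 CPM in series A, and SRF 58.05 to 84.61 CPM in series B, against 175.7 to 341.4 CPM in series A. No series B library overlapped series A in these 3 genes.

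**Figure D5:**
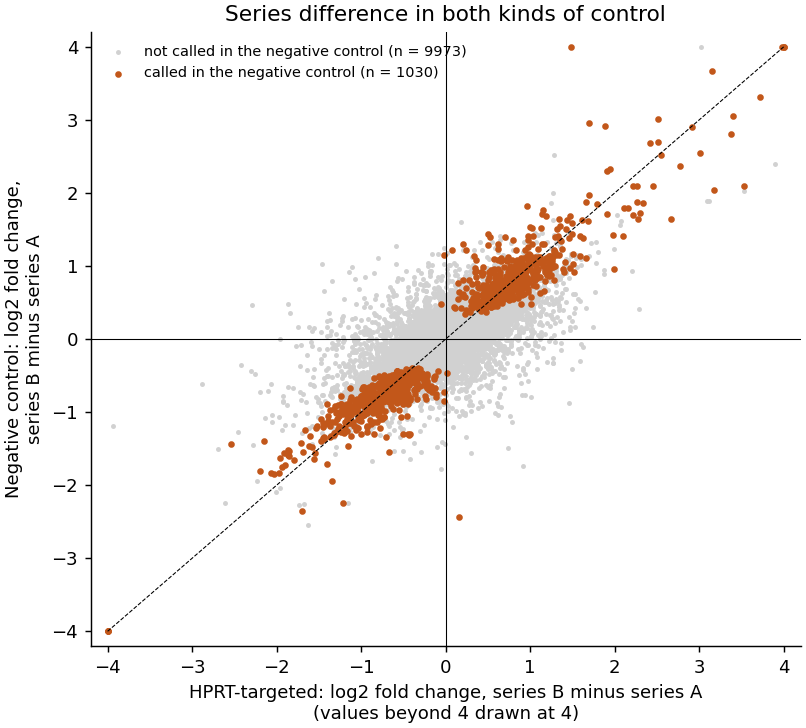
Log2 fold change of series B minus series A in the negative control libraries (vertical axis) against the same in the HPRT-targeted libraries (horizontal axis) for 11003 genes, with the 1030 called in the negative control in orange and the dashed line marking equality. Of the 1030, 1026 have the same sign on both axes, and values beyond 4 are drawn at 4.

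The series difference of the negative control minus that of the HPRT-targeted libraries was tested directly. Of 11836 genes none passed with edgeR at an adjusted p under 0.05 (0%), while 132 had an unadjusted p below 0.05 and DESeq2 called 3 genes. In the HPRT-targeted libraries, where 3.39% of all genes were called, the mitochondrially encoded genes had a median of -0.99 with 4 of 13 lower, and 2 of 3 nuclear copies of MT-RNR2 were higher. Of 16 clustered histone genes tested there 10 were higher and none lower. The same limit from the filter holds for these histone genes and for the nuclear copies of MT-RNR2. Of the guide's own target, HPRT1, HPRT-targeted cells had 41.4 ± 13.2 CPM in series B and 33.1 ± 6.67 CPM in series A, against 49.8 ± 21.9 and 43.2 ± 8.64 CPM in the negative control of series B and series A. The reads lie at the 3′ end, and where the guide cuts is not given in the labels, so these values do not check the labels. HPRT-targeted replicates 2 and 4 of series B and 3 of series A also stood apart, and without these 3 and replicates 6 and 7 of the negative control 2164 genes were called in both kinds of control, all in the same direction.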

How the data were processed

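Whole-number counts of reads per gene were used as deposited by the authors, for 27 libraries in 1 table. Per the submitters' processing notes edgeR 3.24.3 and hg38 were used; for the aligner, the counter, strand use and any filter, the step is not given in the sources used. No count column was left unused (0). Gene symbols were matched to 13949 IDs from a gene name table and 57 from GENCODE 29, and 13899 IDs have a position there.

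Series were compared with edgeR 4.0.16 (R 4.3.3) by its quasi-likelihood test, with TMM scaling, the default filter on low counts by group, and p-values adjusted by Benjamini-Hochberg across every tested gene, called at 0.05. Fold changes are series B over series A. The standard error is the absolute log2 fold change divided by the square root of F. CPM are TMM-scaled; log2(CPM + 0.5) was used for principal components and correlations. Library measures were tested by two-sided exact permutation, adjusted over 5 measures. limma 3.58.1 and DESeq2 1.42.0 served as alternatives. The tests were checked on simulated data. No pair of replicates agreed within sampling noise (chi-square per degree of freedom 3.03 to 78.9).

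Named genes were PECAM1, CDH5 and VWF, the 20 with the highest levels, the largest changes among called genes at a mean of at least 10 CPM (at most 12 each way), the 10 per direction with the largest changes called in both kinds of control, in each gene list the 4 with the highest level and the 4 with the smallest p, and the 6 per series that varied most between replicates at a mean of at least 50 CPM. The members and lists were chosen with earlier results of these data known. The descriptions of histones and their hairpin letters, overlapping genes, genes at 0, transcript length, GC content and MTRNR2L genes, and other genes outside that rule, were chosen after their values were seen. Reads carry no molecular identifiers here, so limits for a count of 0 cover counting error only. The enhancer deletions were used only in the fit of all 27 libraries and for the counts of the second MATR3 ID. Some genes that the naming rule selects are not reported here.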

Additional observations from a re-analysis of the deposited data

Results flagged for a closer look

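Of 76 groups of library values tested for a value far from its neighbours, 3 had one, which is no more than chance gives at about 1 in 20. H4C3 reached 1972 CPM in replicate 6 of series B, where the other 6 libraries had 620.8 to 1029 CPM. OVCA2 had 13.97 CPM in replicate 6 of series B and 0 in the other 6. PTP4A1 had 29.92 CPM in replicate 4 of series B and 0 in the other 6. Where the other 6 libraries are all at 0, any value above 0 stands out in this way. OVCA2 and PTP4A1 each overlap another gene on the same strand. Replicate 6 is also 1 of the 2 series B libraries that stood apart on PC1, and the part of this in the H4C3 and OVCA2 values was not tested.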

How the results depend on the processing

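The 1039 calls between the series became 3615 with limma voom and sample quality weights, 59 against a fold of 1.5, 3536 without replicates 6 and 7 of series B, and 480 to 1595 when 1 library was left out. Without replicates 6 and 7 the common dispersion of series B was 0.0375. The 375 calls of the HPRT-targeted libraries became 956 with DESeq2, 2746 without the 3 that stood apart, and 29 to 435 when 1 library was left out, with 29 without replicate 1 or 4 of series A, 31 without replicate 2 and 161 without replicate 3. The difference between the 2 kinds of control gave 3 calls with DESeq2, 1 without the libraries that stood apart, and 0 to 1 when 1 was left out (1 without HPRT-targeted replicate 3 of series A).

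Series B minus series A was -902.7 to -672.5 for genes with a count and -3.60 to -2.86 percentage points for the share of the top 100 genes when 1 library was left out. Without replicates 6 and 7 it was -2.61 points for the ribosomal protein share and 10915 for total counts, a change of sign. PECAM1 ran from -0.032 to 0.21 when 1 library was left out and VWF from -0.38 to 0.15, and VWF was 0.079 with voom, 0.032 with counts thinned to a common total and 0.39 without replicates 6 and 7.

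Of 94 called genes followed, 65 kept their call whichever library was left out, and none of the 94 changed sign in any setting run. Some genes described above without this limit also lost their call in fits that left out 1 library. These were H2AX, ACLY and PTP4A1 in 4 of 11 fits, RPS24 in 3, and CCNE2, CLEC14A, IER2, MT-CO3 and H1-3 in 2 each. Leaving out replicates 1 to 4 of series A ended 25, 26, 21 and 26 of the 94 calls, and leaving out replicates 1 to 7 of series B ended 11, 9, 11, 6, 5, 5 and 0. The causes were not tested. No paired analysis was possible because the replicate numbers follow accession order and pair no libraries.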

Other observations

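The genes that varied most between replicates were of different kinds in the series. In series B, 5 of the 6 with the largest SD of log2(CPM + 0.5) were CENPE and CENPF, which serve chromosome segregation, the proliferation marker MKI67 and the Golgi proteins GOLGA4 and GOLGA3, and the sixth was ANKRD11. CENPE had 0.1968 and 2.855 CPM in replicates 6 and 7, against 107 to 216 CPM in replicates 1 to 5 of series B and 101.3 to 186.1 CPM in series A. MKI67 had 5.116 and 3.953 CPM in replicates 6 and 7, against 190.3 to 369.8 CPM in replicates 1 to 5 and 153.3 to 320.9 CPM in series A. These follow the libraries that stood apart.

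In series A the list was EIF3C, ASNS, ENSG00000287001, PSAT1, H4C3 and DST. ASNS, which makes asparagine, had 20.8, 40.16, 88.4 and 74.41 CPM in the 4 series A libraries, and 25.23 to 139 CPM in series B. PSAT1, an enzyme of serine synthesis, had 110.9, 155.8, 275.6 and 228.3 CPM in the same libraries, and 81 to 422.9 CPM in series B, where replicates 7 and 3 were the highest for both genes.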
